A study of Rattus norvegicus with 12 samples.

Results

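The superficial layer (laminae I–II) of the L5 spinal dorsal horn was compared between CNO-injected and Saline-injected transgenic rats. The comparison rests on the 3 CNO and the 3 Saline libraries cut from laminae I–II, 6 of the 12 libraries of the series, and takes in every gene with enough counts: 13344 of the 32623 genes listed passed the filter on low counts. CNO libraries came from adult male OT-hM3Dq-mCherry rats aged 8 weeks that received clozapine-N-oxide at 1 mg/kg under the skin 120 min before decapitation, and Saline libraries from the same line after saline. The rats of both groups carry the same BAC transgene, in which the oxytocin promoter drives hM3Dq, a designer receptor that CNO activates, fused to mCherry. Laminae I–II and laminae III–VI were cut by laser microdissection from frozen 12 µm sections of 3 rats per group, and total RNA was sequenced after rRNA depletion. No wild-type rats were analysed here, so an action of CNO itself and an action of the activated oxytocin neurons cannot be told apart.

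The superficial laminae receive most of the pain and temperature fibres that enter the cord. Their small excitatory and inhibitory interneurons, marked by peptides such as substance P, neurokinin B, somatostatin, dynorphin and enkephalin, process this input, and projection neurons of lamina I pass it on to the brain. Hypothalamic oxytocin neurons send fibres to this region, and oxytocin dampens its response to painful input, while noradrenaline and serotonin arrive there from the brainstem. Dorsal roots and pia mater lie directly against lamina I, so tissue cut along its edge can also hold Schwann cells and meningeal fibroblasts.

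CNO libraries held 6095833 to 6576869 counts and Saline libraries 5245952 to 5694619, so the smallest CNO library exceeded the largest Saline one. Messages of the mitochondrial genome took 5.21 to 5.65% of the counts in CNO libraries and 5.08 to 6.36% in Saline libraries. The 19 superficial dorsal horn markers summed to 2103 to 2502 CPM (counts scaled to the library size and by TMM factors) in CNO and 1921 to 2203 CPM in Saline libraries of laminae I–II, against 456 to 515 and 455 to 524 CPM in laminae III–VI, and the deep dorsal horn markers lay the other way, as the layer's label says. The Schwann cell markers summed to 947 to 1019 CPM in CNO and 1204 to 1604 CPM in Saline libraries, and the fibroblast and meninges markers to 1392 to 1584 CPM and 1598 to 1960 CPM, with no overlap between the groups for either list. In these bulk samples fewer cells of a type and less RNA per cell cannot be told apart. Saline replicate 3 held the highest sum of both lists, and the part of these cells in the values of other genes was not tested. Sums without overlap were not confined to these lists. Also lower without overlap were the sums of the oligodendrocyte, immediate early and interferon lists. The opioid, oxytocin and vasopressin, and retinoic acid sums were lower in the same way. Those of GABA and glycine transmission and of mast cells were higher without overlap.

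Between CNO and Saline, 19 genes passed an adjusted p of 0.05 (0.142% of the genes tested, quasi-likelihood test of edgeR, p-values adjusted by Benjamini-Hochberg), 4 of them higher with CNO (0.03%) and 15 lower (0.112%). The lower genes included Hoxd10, Prx, Myoc, Fgf1, Pmp22, Cnmd, Pmp2, Gpr83, Aldh1a2, Scn7a, Col14a1, the lincRNA AABR07041411.1, Dcn and C3. The 4 higher genes were Tmem132d, Tenm3, Sema3g and Sox5. The lower genes fell by 0.72 to 3.96 on the log2 scale, and the higher genes rose by 0.40 to 0.78, while the median over all tested genes was -0.003. At an unadjusted p under 0.05 there were 941 genes (7.05%), 462 higher (3.46%) and 479 lower (3.59%), and 785 genes (5.88%) lay higher and 775 (5.81%) lower in all 3 CNO libraries than in all 3 Saline libraries. Without CNO replicate 2 only Hoxd10, Prx and Myoc passed, and leaving out any other library left 15 to 28 genes. DESeq2 called 9 genes, all among the 19.

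**Figure D1:**
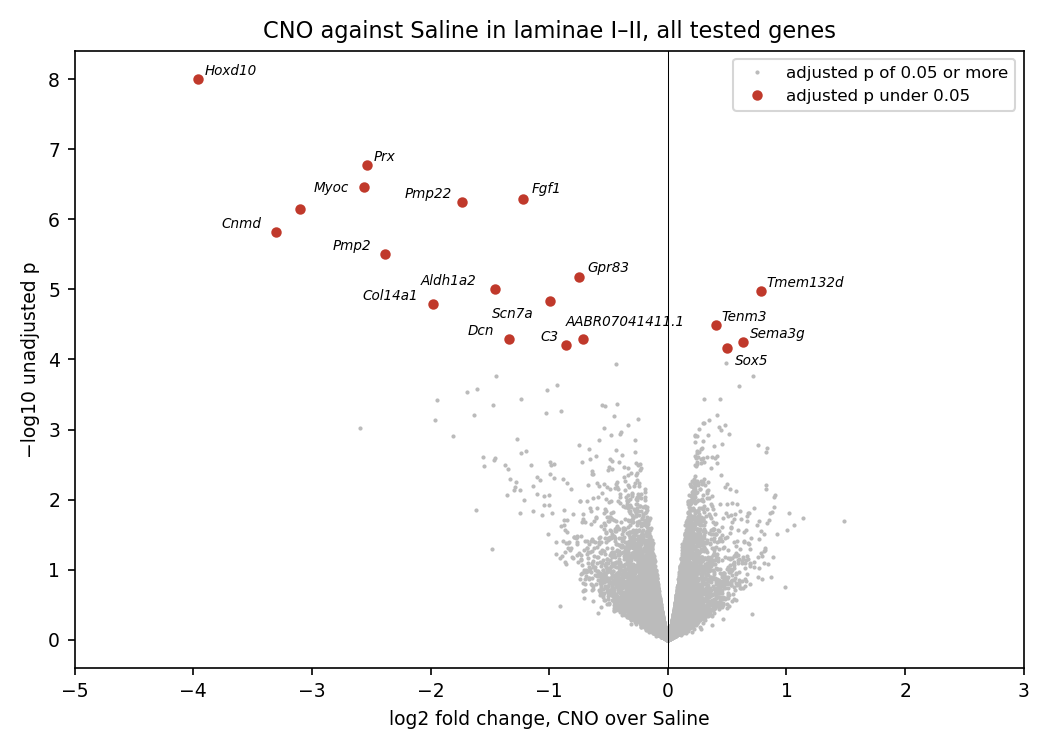
Each point is one of 13344 genes in laminae I–II, with the log2 fold change of CNO over Saline on the x axis and the −log10 unadjusted p on the y axis. The 19 genes with an adjusted p under 0.05 are red (18 of them named), 4 on the right (higher with CNO) and 15 on the left, with Hoxd10 farthest out at -3.96.

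**Figure D2:**
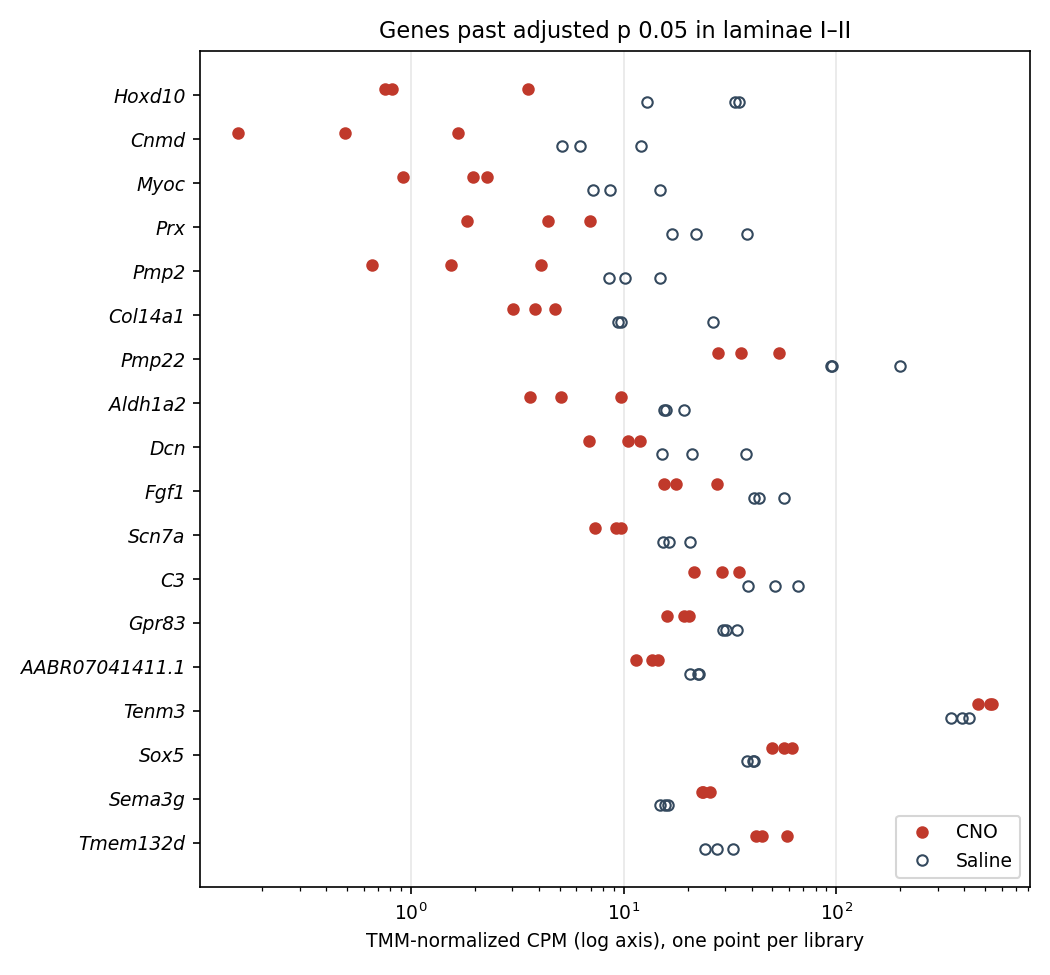
TMM-normalized CPM (log axis) of 18 of the 19 genes in each library, with filled red points for the 3 CNO libraries and open points for the 3 Saline libraries. In all 18 the CNO and Saline libraries do not overlap, which the choice of these genes by p from the same libraries nearly fixed. Over all tested genes 11.7% did not overlap.

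Hoxd10, Prx and Myoc kept an adjusted p under 0.05 in each of the 15 alternative analyses, and the 150 bases before their start sites are shown because the 3 genes lead the groups described next. They are RefSeq sequences of the GRCr8 assembly, 5′ to 3′ on the gene's strand, with capitals for CCAAT (or ATTGG on the other strand), the core of the CCAAT box, and for TATAAA (or TTTATA), the core of the TATA box.
Hoxd10, chr3:80001797-80001946 (+): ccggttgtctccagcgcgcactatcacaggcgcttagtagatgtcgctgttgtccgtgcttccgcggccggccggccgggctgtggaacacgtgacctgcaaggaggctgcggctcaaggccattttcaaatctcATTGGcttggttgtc
Prx, chr1:91914271-91914420 (+): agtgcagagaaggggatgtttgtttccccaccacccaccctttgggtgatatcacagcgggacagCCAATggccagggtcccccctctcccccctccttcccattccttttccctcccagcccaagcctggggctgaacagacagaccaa
Myoc, chr13:77509813-77509962 (+): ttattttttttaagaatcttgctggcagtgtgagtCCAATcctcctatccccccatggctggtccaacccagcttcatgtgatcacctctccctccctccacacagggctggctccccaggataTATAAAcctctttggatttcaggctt

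Of the 19 genes, 12 matched a promoter in the RefSeq table. Over 250 bases before the start and on either strand, CCAAT stood in 6 of them (Hoxd10, Prx, Myoc, Pmp22, Aldh1a2 and Sema3g) against 34.0% of 33469 promoters, a motif searched after the first sequences had been read. TATAAA stood in 2 (Myoc and Gpr83) against 12.9%, ACAAAG, the core bound by SOX factors, in Fgf1 only against 16.3%, and GGGCGG, the core of the GC box, in Scn7a and Sema3g against 30.5%. A match is a run of letters and not a shown site.

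Several genes of peripheral myelin fell with CNO. Of 15 tested Schwann cell markers, 5 fell (among them Prx, Pmp22, Pmp2 and Scn7a) and none rose, against 0.112% and 0.03% over all genes. The list's median log2 fold change was -0.30 against -0.003 over all tested genes. Members of this and the other lists were chosen with earlier results of these data known, so such counts and medians are not independent support. Prx encodes periaxin, which organizes the Schwann cell membrane outside compact myelin, and was at 1.84, 4.42 and 6.98 CPM with CNO, against 21.9, 16.9 and 38.2 CPM with Saline (log2 fold change -2.54 with a standard error of 0.32, edgeR adjusted p = 0.00112). Pmp22, a membrane protein of compact peripheral myelin whose gene dosage causes human inherited neuropathies, was at 27.8, 35.7 and 53.9 CPM with CNO, against 95.8, 94.5 and 199 CPM with Saline (-1.73, standard error 0.23, adjusted p = 0.00152). Pmp2, a lipid-binding protein of the myelin sheath, was at 1.54, 0.655 and 4.10 CPM with CNO, against 8.55, 10.1 and 14.8 CPM with Saline. Saline replicate 3 was the highest library for each of these 3 genes, and the other 2 Saline libraries lay close together.

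Scn7a, which encodes the sodium-sensing channel Nax found in Schwann cells and some glia, had a smaller log2 difference than the myelin genes. It was at 9.22, 7.36 and 9.72 CPM with CNO, against 15.4, 16.4 and 20.6 CPM with Saline (-0.99, standard error 0.17, edgeR adjusted p = 0.0165). Without Saline replicate 3 Scn7a was at -0.85 with an adjusted p of 0.0831, and without CNO replicate 2 at -0.88 with 0.227. Pmp22 was at -1.28 with an adjusted p of 4.67e-05 without Saline replicate 3. Among markers that did not pass, Egr2, the transcription factor that drives peripheral myelination, was at 2.31, 1.80 and 1.67 CPM with CNO, against 3.61, 2.21 and 4.05 CPM with Saline (edgeR adjusted p = 0.689). Ngfr, the p75 neurotrophin receptor, was at 1.84, 2.45 and 3.19 CPM with CNO, against 2.85, 0.921 and 1.76 CPM with Saline (edgeR adjusted p = 0.874). None of 20 tested markers of oligodendrocytes and central myelin passed, and their median was -0.06. At an unadjusted p under 0.05, 3 were lower, against 3.59% over all genes. Their sum was lower too, at 17178 to 18304 CPM with CNO and 18328 to 19310 CPM with Saline. The highest CNO and the lowest Saline library lay close together, and sums of several other lists did not overlap either. Mbp, the myelin basic protein, was at 4376, 5154 and 4561 CPM with CNO, against 4758, 5584 and 5223 CPM with Saline. Markers of dorsal root ganglion neurons showed no call among 6 tested members, with a median of 0.12, and 14 others were too low to test. The list summed to 189 to 232 CPM with CNO and 196 to 202 CPM with Saline. It shares members such as Ret and Prph with the motor and cholinergic list, so it does not measure how much root tissue was cut.

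Of 23 tested fibroblast and meninges markers 4 fell (Myoc, Cnmd, Aldh1a2 and Dcn), against 0.112% over all genes, none rose and 19 did not pass. This list too was chosen with earlier results of these data known, so its count and median are not independent support. There were 9 lower at an unadjusted p under 0.05 (3.59% over all genes), 6 of the 23 had a value above 0, and the median was -0.33. Myoc encodes myocilin, a secreted glycoprotein best known from the human eye and glaucoma. It was at 0.922, 1.96 and 2.28 CPM with CNO, against 7.22, 8.65 and 14.8 CPM with Saline (log2 fold change -2.56 with a standard error of 0.34, edgeR adjusted p = 0.00152). Cnmd, chondromodulin, a membrane glycoprotein of cartilage that restrains vessel growth, had 1, 3 and 11 counts in CNO libraries, against 33, 28 and 69 counts in Saline libraries (log2 fold change -3.30, standard error 0.48, adjusted p = 0.00287). Dcn, decorin, a small proteoglycan that binds collagen fibrils, was at 6.92, 10.5 and 12.0 CPM with CNO, against 15.2, 21.0 and 37.7 CPM with Saline (-1.34, standard error 0.26, adjusted p = 0.0424). Without Saline replicate 3, which held the highest value, Dcn was at -0.89 with an adjusted p of 0.117, and it did not pass without CNO replicate 1 or 2 or Saline replicate 2 either.

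Aldh1a2 encodes the retinaldehyde dehydrogenase that makes retinoic acid, in the mouse an enzyme of the meninges. It was at 9.69, 5.07 and 3.64 CPM with CNO, against 15.8, 19.3 and 15.5 CPM with Saline (log2 fold change -1.45 with a standard error of 0.24, edgeR adjusted p = 0.0128). In contrast to the myelin genes its Saline libraries lay close together, and Saline replicate 3 was the lowest of them. Aldh1a2 did not pass without CNO replicate 2 or Saline replicate 2. It was the only call among 15 tested genes of the retinoic acid system, whose median was -0.08. Rarb, a retinoic acid receptor whose gene is itself induced by retinoic acid, was at 11.8, 9.16 and 9.41 CPM with CNO, against 17.7, 12.2 and 12.8 CPM with Saline (edgeR adjusted p = 0.572). Cyp26b1, which degrades retinoic acid, lay on the other side, at 5.38, 9.98 and 11.7 CPM with CNO, against 5.51, 5.71 and 5.63 CPM with Saline (edgeR adjusted p = 0.572). Rara and Rbp4, the alpha receptor and the plasma retinol carrier, had log2 differences of -0.43 and -0.48 and did not pass.

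In matrix genes 1 library stood apart. Col14a1, a collagen that associates with collagen fibrils, was the only call among 49 tested genes of matrix and integrins, at 3.84, 4.75 and 3.04 CPM with CNO, against 9.69, 9.39 and 26.4 CPM with Saline (log2 fold change -1.98 with a standard error of 0.34, edgeR adjusted p = 0.0165). A further 22 members were lower at an unadjusted p under 0.05 and 1 was higher, against 3.59% and 3.46% over all genes. The median was -0.19. Col3a1, the type III collagen chain, was at 20.4, 22.3 and 26.1 CPM with CNO, against 27.7, 35.7 and 203 CPM with Saline (edgeR adjusted p = 0.22). Fbn1, fibrillin-1 of elastic microfibrils, was at 17.1, 16.7 and 14.9 CPM with CNO, against 21.7, 24.9 and 103 CPM with Saline (edgeR adjusted p = 0.204). Saline replicate 3 thus stood far above the other Saline libraries in both genes, and these lay just above the CNO libraries. Without it the log2 fold changes were -0.47 for Col3a1 and -0.52 for Fbn1, and the median of extracellular matrix and integrins genes was -0.08. The same library was high for Igfbp5, a secreted binder of insulin-like growth factors, at 115, 105 and 114 CPM with CNO, against 115, 109 and 297 CPM with Saline. Col14a1 passed without Saline replicate 3 (-1.30, adjusted p = 0.0355) but not without any 1 of the CNO libraries.

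**Figure D3:**
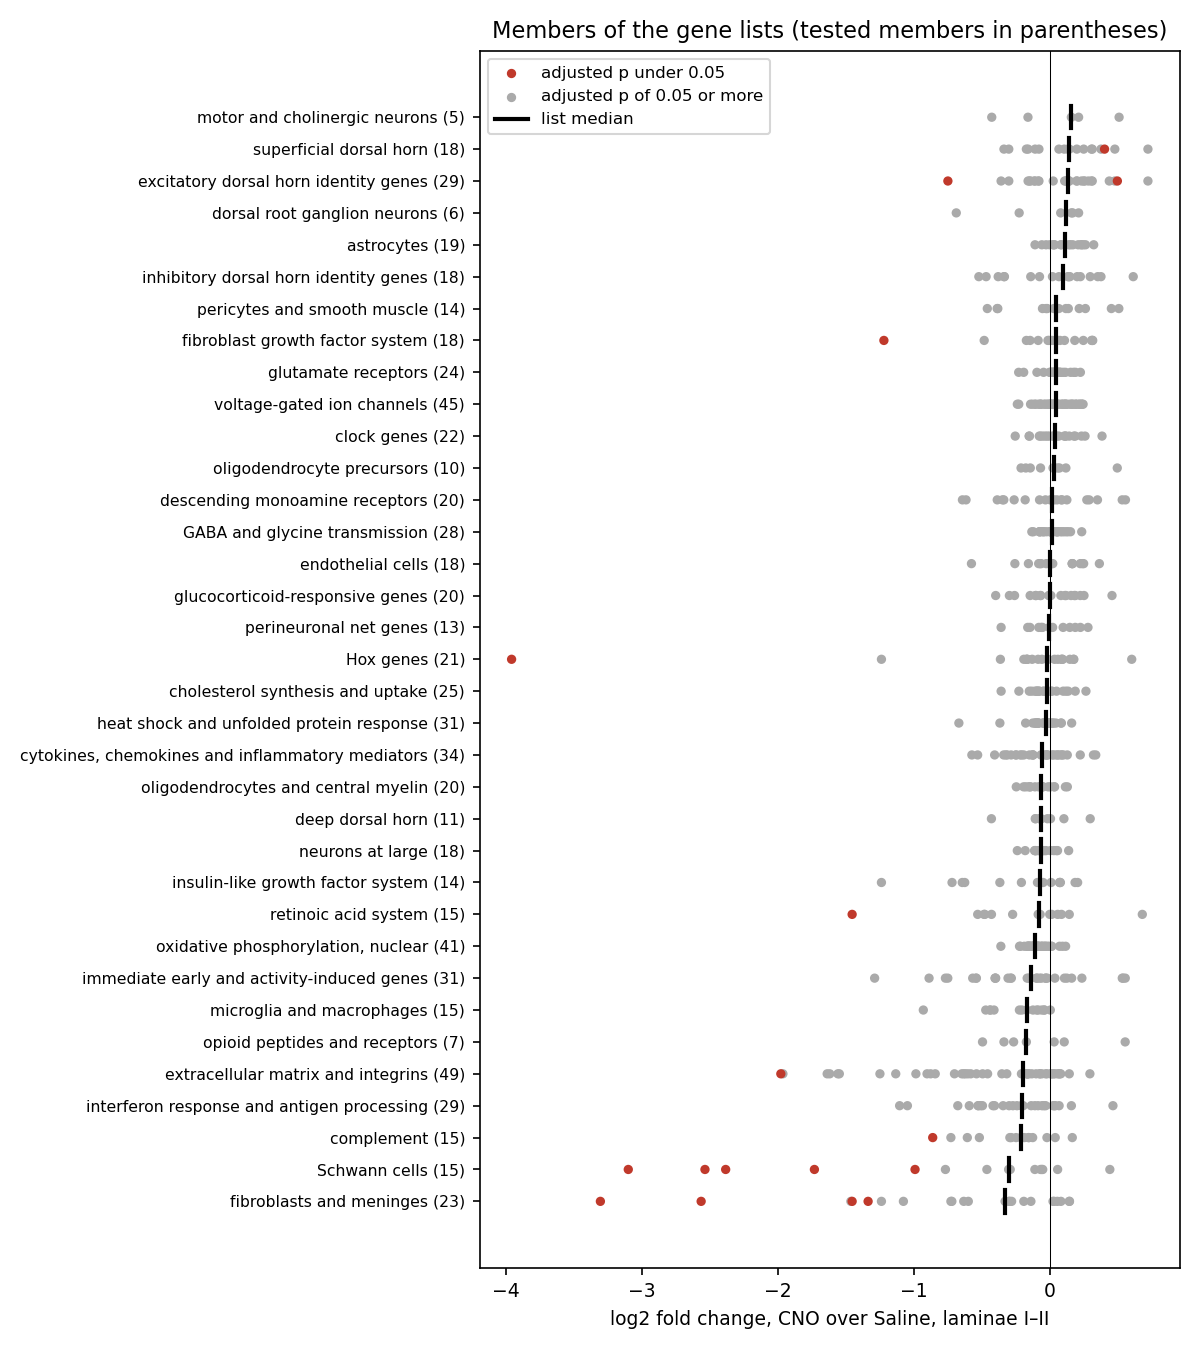
Log2 fold change of CNO over Saline in laminae I–II (x axis) for each tested member of the gene lists with 5 or more tested members (1 line per list, ordered by median). Red points passed an adjusted p of 0.05 and black bars are list medians, which run from -0.33 for fibroblasts and meninges and -0.30 for Schwann cells at the bottom to 0.14 for the superficial dorsal horn and 0.16 for motor and cholinergic neurons at the top.

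Hoxd10, a homeodomain factor that gives lumbar segments their identity in the embryo, had the smallest p of all genes. It was at 3.54, 0.818 and 0.759 CPM with CNO, against 35.0, 33.5 and 12.8 CPM with Saline, or 23, 5 and 5 counts against 184, 182 and 73 (log2 fold change -3.96 with a standard error of 0.41, edgeR adjusted p = 0.000132). The lowest Saline library stood above the highest CNO library. Hoxd10 lies on rat chromosome 3 from 61613774 to 61617367 of the rn6 build (plus strand). The genes beside it in the Hoxd cluster were lower by less. Hoxd9 was at 6.61, 2.45 and 3.34 CPM with CNO, against 8.55, 12.3 and 8.62 CPM with Saline (-1.24, standard error 0.29, edgeR adjusted p = 0.159). Hoxd8 was at 9.38, 7.04 and 9.56 CPM with CNO, against 10.1, 12.9 and 10.6 CPM with Saline (-0.36, adjusted p = 0.746). Hoxd11, on the other side, had at most 1 count in any library and was not tested. In the other clusters the paralogs of Hoxd10 gave no call: Hoxc10 was at 40.9, 46.8 and 48.1 CPM with CNO, against 49.2, 53.6 and 50.0 CPM with Saline (-0.17, adjusted p = 0.778). Hoxa10 was at 2.00, 2.29 and 2.43 CPM with CNO, against 2.09, 1.29 and 1.06 CPM with Saline (0.60, adjusted p = 0.819). Of the 21 tested Hox genes Hoxd10 alone passed, and the list's median was -0.02.

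**Figure D4:**
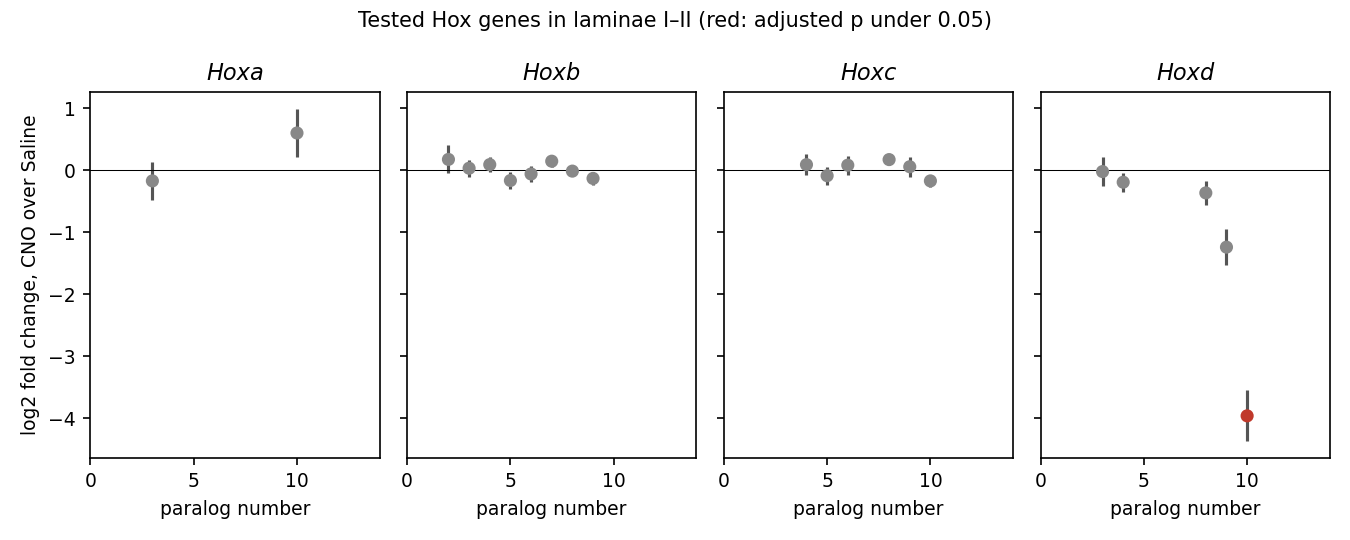
Log2 fold change of CNO over Saline in laminae I–II with its standard error (y axis) for the 21 tested Hox genes, by paralog number (x axis) in the 4 clusters. Hoxd10 (red, -3.96) passed, Hoxd9 (-1.24) is next, and the other 19 lie between -0.36 and 0.60.

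Fgf1 was the only call among 18 tested genes of the fibroblast growth factor system. It encodes acidic fibroblast growth factor, which binds all fibroblast growth factor receptors, and was at 27.4, 17.7 and 15.5 CPM with CNO, against 57.0, 43.3 and 41.2 CPM with Saline (log2 fold change -1.22 with a standard error of 0.16, edgeR adjusted p = 0.00152). The median of the system was 0.05. Spry4, a feedback inhibitor that fibroblast growth factor signalling induces, was at 32.0, 22.7 and 23.5 CPM with CNO, against 39.7, 36.6 and 33.3 CPM with Saline (edgeR adjusted p = 0.264). Fgfr3, the receptor of astrocytes, was at 126, 141 and 129 CPM with CNO, against 113, 108 and 112 CPM with Saline (edgeR adjusted p = 0.353). In both genes the groups did not overlap, in opposite directions. Of 14 tested genes of the insulin-like growth factor system none passed and 5 were lower at an unadjusted p under 0.05 (3.59% over all genes). Among these Igfbp3, a carrier of the factors, was at 2.31, 4.42 and 4.40 CPM with CNO, against 5.89, 6.44 and 5.98 CPM with Saline (edgeR adjusted p = 0.575).

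C3 was the only call among the complement, interferon, cytokine and microglial genes. C3, the component on which all complement pathways converge, was at 21.4, 29.1 and 35.1 CPM with CNO, against 51.3, 65.9 and 38.5 CPM with Saline (log2 fold change -0.86 with a standard error of 0.17, edgeR adjusted p = 0.0456). The highest CNO library was close to the lowest Saline library, and C3 did not pass without CNO replicates 1 or 2 or Saline replicates 1 or 2. Of 15 tested complement genes 13 had a value below 0, 5 of them at an unadjusted p under 0.05 (3.59% lower over all genes). The median was -0.21 (-0.35 without Saline replicate 1, as the median of complement genes). The complement genes summed to 964 to 1065 CPM with CNO and 1036 to 1213 CPM with Saline, so that the groups overlapped. C1qc, a chain of the initiating complex made by microglia, was at 11.5, 11.6 and 11.8 CPM with CNO, against 17.1, 21.9 and 11.3 CPM with Saline (edgeR adjusted p = 0.568). C2, a protease of the classical pathway, was at 3.54, 5.07 and 5.47 CPM with CNO, against 7.60, 7.37 and 6.51 CPM with Saline (edgeR adjusted p = 0.596). None of 29 tested genes of the interferon response and antigen processing passed, 23 had a value below 0, and the median was -0.21. At an unadjusted p under 0.05, 7 were lower and none higher, against 3.59% and 3.46% over all genes. Usp18, which is induced by interferon and restrains its receptor, was at 1.23, 2.13 and 4.25 CPM with CNO, against 5.70, 6.08 and 4.75 CPM with Saline (edgeR adjusted p = 0.447).

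Of 15 tested markers of microglia and macrophages none passed and 14 had a value below 0, with a median of -0.17. At an unadjusted p under 0.05, 1 gene was lower, against 3.59% over all genes. That gene was Tyrobp, the signalling adaptor of TREM2 and related receptors, at 4.46, 5.07 and 5.16 CPM with CNO, against 9.88, 9.39 and 8.80 CPM with Saline (log2 fold change -0.93 with a standard error of 0.21, edgeR adjusted p = 0.126). Its libraries did not overlap between the groups, but it was named for a small p and for that lack of overlap. Cx3cr1, the fractalkine receptor, was at 14.1, 17.5 and 16.7 CPM with CNO, against 19.4, 17.9 and 19.2 CPM with Saline (edgeR adjusted p = 0.797). The marker sum was 281 to 334 CPM with CNO and 325 to 369 CPM with Saline, and its part in the lower complement and interferon values was not tested. Cytokines, chemokines and inflammatory mediators gave no call among 34 tested genes, with a median of -0.06. At an unadjusted p under 0.05, 1 was higher and 1 lower (3.46% and 3.59% over all genes). Il10, Tnf and Ccr2 were listed at 0 in all 6 libraries. Mast cell markers were near 0 apart from Kit, which neurons and glia also express, and only 2 of 12 were tested, with no call and 1 higher at an unadjusted p under 0.05. Their sum was 75.1 to 86.9 CPM with CNO and 68.4 to 74.1 CPM with Saline, with no overlap.

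The 4 higher calls included genes of neuronal wiring and identity. Tenm3 encodes teneurin-3, an adhesion receptor that matches pre- and postsynaptic partners. It was at 466, 541 and 528 CPM with CNO, against 422, 346 and 393 CPM with Saline, or 1.32 times the Saline level (log2 fold change 0.40 with a standard error of 0.07, edgeR adjusted p = 0.0311). Sox5, a transcription factor of excitatory dorsal horn neurons in the mouse, was at 49.8, 62.2 and 56.8 CPM with CNO, against 40.5, 41.1 and 38.0 CPM with Saline (0.50, standard error 0.10, adjusted p = 0.0485). Tmem132d, a single-pass membrane protein, showed the largest rise of the 4, to 1.72 times the Saline level, at 44.7, 58.4 and 41.9 CPM with CNO, against 32.7, 27.6 and 24.1 CPM with Saline (0.78, standard error 0.13, adjusted p = 0.0128). Sema3g, a secreted semaphorin that guides growing processes and is made by vessels, was at 23.4, 25.4 and 23.7 CPM with CNO, against 16.2, 15.7 and 14.8 CPM with Saline (0.64, standard error 0.12, adjusted p = 0.0441). The Sema3g libraries were the tightest of the 4 genes. All 4 rises were below 2-fold. Sema3g did not pass when any 1 of the 6 libraries was left out, and Sox5 passed only without CNO replicate 1, while Tmem132d failed only without CNO replicate 2 or Saline replicate 2. Tenm3 lost its call in 3 of the 6 fits that left out a library (Saline replicate 2, CNO replicate 2 or CNO replicate 3), with an adjusted p of up to 0.388.

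Gpr83 ran the other way. This G protein-coupled receptor marks spinal projection neurons and other dorsal horn neurons in the mouse. It was at 20.3, 16.0 and 19.3 CPM with CNO, against 34.0, 30.4 and 29.4 CPM with Saline, or 59.5% of the Saline level (log2 fold change -0.75 with a standard error of 0.12, edgeR adjusted p = 0.00972). It passed in 14 of the 15 alternatives, failing only without CNO replicate 2. AABR07041411.1, a long intergenic RNA on chromosome X from 129223138 to 129336004 of rn6 (minus strand), was at 13.7, 11.5 and 14.6 CPM with CNO, against 22.6, 22.3 and 20.6 CPM with Saline (-0.72, standard error 0.14, adjusted p = 0.0424). AABR07041411.1 passed in 7 of the 15 alternatives, not in DESeq2, limma-voom or the fit over all 12 libraries, and in 1 of the 6 fits that left out a library, the one without Saline replicate 3.

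Among 29 tested genes of excitatory dorsal horn identity, Sox5 rose and Gpr83 fell, 7 members were higher and 1 lower at an unadjusted p under 0.05, against 3.46% higher and 3.59% lower over all genes, and the median was 0.13. Of 18 superficial dorsal horn markers Tenm3 rose, 7 were higher and 2 lower at that p, and the median was 0.14. This list shares members with the excitatory one, among them Nmur2, Tac3, Ebf1 and Ebf2, so their counts are not independent. Of 11 deep dorsal horn markers tested in the same libraries none passed, 8 had a value below 0, and the median was -0.07. Of 18 markers of neurons at large none passed in laminae I–II, 13 had a value below 0, and the median was -0.07. At an unadjusted p under 0.05, 2 of these 18 were lower and none higher, against 3.59% and 3.46% over all genes. Nmur2, the receptor for neuromedin U, was at 20.1, 28.8 and 31.4 CPM with CNO, against 14.4, 17.3 and 16.9 CPM with Saline (edgeR adjusted p = 0.101). Tac3, which encodes neurokinin B, was at 54.4, 67.1 and 62.9 CPM with CNO, against 51.3, 47.1 and 34.1 CPM with Saline (edgeR adjusted p = 0.236). Ebf2, a transcription factor of early dorsal horn neurons, was at 131, 142 and 130 CPM with CNO, against 114, 110 and 102 CPM with Saline (edgeR adjusted p = 0.159), and Ebf1 differed by 0.25 on the log2 scale. None of these genes passed, and the first 3 were named for a small p and groups that do not overlap.

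Inhibitory identity genes gave no call among 18 tested, with 3 higher and 3 lower at an unadjusted p under 0.05 (3.46% and 3.59% over all genes). Sst, somatostatin, stands in this list and in that of the superficial dorsal horn, and does not mark inhibitory neurons only. It was at 266, 361 and 300 CPM with CNO, against 240, 279 and 195 CPM with Saline (edgeR adjusted p = 0.357). Nos1, neuronal nitric oxide synthase, was at 94.1, 101 and 90.8 CPM with CNO, against 80.2, 77.3 and 86.7 CPM with Saline (edgeR adjusted p = 0.499). Bhlhe22, a transcription factor of a dynorphin population in the mouse, was at 8.46, 9.66 and 8.35 CPM with CNO, against 12.7, 14.9 and 10.4 CPM with Saline (edgeR adjusted p = 0.514). Pax2, which specifies inhibitory neurons, was at 21.5, 18.2 and 20.3 CPM with CNO, against 17.3, 25.2 and 20.8 CPM with Saline (edgeR adjusted p = 0.952). Npy was listed at 0 in all 6 libraries.

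Opioid genes gave no call. Of 7 tested, 4 were lower at an unadjusted p under 0.05 and none higher, against 3.59% lower over all genes, and the median was -0.17. Oprk1, the kappa receptor, was at 12.0, 12.3 and 11.4 CPM with CNO, against 17.1, 18.2 and 14.96 CPM with Saline (log2 fold change -0.49 with a standard error of 0.15, edgeR adjusted p = 0.38). Oprm1, the mu receptor, was at 28.3, 31.6 and 29.0 CPM with CNO, against 34.6, 37.6 and 34.7 CPM with Saline (-0.27, adjusted p = 0.581). In both receptors the groups did not overlap. Pdyn, the dynorphin precursor, was at 38.7, 37.8 and 49.2 CPM with CNO, against 57.0, 54.9 and 47.3 CPM with Saline (-0.34, adjusted p = 0.471). Penk, the enkephalin precursor, was at 443, 508 and 494 CPM with CNO, against 568, 560 and 501 CPM with Saline (-0.17, adjusted p = 0.596). The peptide precursors overlapped between the groups.

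Immediate early and activity-induced genes, which neurons transcribe within minutes to hours of firing, gave no call among 31 tested. At an unadjusted p under 0.05 there were 9 lower and 1 higher, against 3.59% lower and 3.46% higher over all genes, and the median was -0.14. Vgf, a secreted peptide precursor induced by neurotrophins and activity, was at 45.8, 40.8 and 40.2 CPM with CNO, against 56.4, 63.7 and 47.7 CPM with Saline (edgeR adjusted p = 0.264). Nr4a1, an orphan nuclear receptor of the early response, was at 11.5, 8.02 and 5.92 CPM with CNO, against 13.7, 15.8 and 13.4 CPM with Saline (edgeR adjusted p = 0.318). Fos was at 16.9, 21.3 and 20.6 CPM with CNO, against 22.4, 28.5 and 21.8 CPM with Saline (-0.31, edgeR adjusted p = 0.686). Klf4 and Cyr61, early response genes that are prominent in vascular and connective tissue cells, had log2 differences of -0.54 and -1.29 and did not pass. Egr3, the member that was higher at that unadjusted p, was at 8.15, 8.02 and 10.9 CPM with CNO, against 5.51, 5.89 and 7.21 CPM with Saline (edgeR adjusted p = 0.596). Each CNO library of Vgf, Nr4a1 and Fos lay under each Saline library, and each CNO library of Egr3 above.

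Genes of synaptic transmission gave no call. Of 28 tested genes of GABA and glycine transmission none passed, and the median was 0.02. At an unadjusted p under 0.05, 2 were higher and none lower, against 3.46% and 3.59% over all genes. Gad1, a GABA-synthesizing enzyme, was at 239, 244 and 231 CPM with CNO, against 247, 250 and 208 CPM with Saline (log2 fold change 0.02 with a standard error of 0.07, edgeR adjusted p = 0.977). Gad2 was at -0.02 (standard error 0.06) and Slc32a1, the vesicular transporter of GABA and glycine, at 0.00 (standard error 0.07). Slc6a11, the astrocytic GABA transporter, was at 256, 262 and 235 CPM with CNO, against 200, 229 and 210 CPM with Saline (edgeR adjusted p = 0.357). Glutamate receptors had no call among 24 tested, and Grin2b, an NMDA receptor subunit, was at 194, 189 and 191 CPM with CNO, against 174, 161 and 157 CPM with Saline (edgeR adjusted p = 0.357). Voltage-gated ion channels had no call among 45, and 10 were higher and 2 lower at an unadjusted p under 0.05, against 3.46% higher and 3.59% lower over all genes. Cacna1e, the R-type calcium channel, was at 651, 714 and 663 CPM with CNO, against 608, 572 and 531 CPM with Saline (0.24, standard error 0.06, adjusted p = 0.264). Kcnd3, an A-type potassium channel subunit, was at 173, 191 and 202 CPM with CNO, against 163, 166 and 151 CPM with Saline (edgeR adjusted p = 0.374).

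Receptors for the descending transmitters were not called among 20 tested, with 2 higher and 2 lower at an unadjusted p under 0.05 (3.46% and 3.59% over all genes). Htr2c, a serotonin receptor, was at 139, 114 and 131 CPM with CNO, against 163, 139 and 159 CPM with Saline (edgeR adjusted p = 0.428). Adra2a, the noradrenaline receptor through which clonidine relieves pain, was at 32.7, 32.2 and 28.4 CPM with CNO, against 24.1, 26.9 and 26.2 CPM with Saline (edgeR adjusted p = 0.6). The oxytocin receptor Oxtr was scarce, at 2.46, 4.26 and 3.04 CPM with CNO, against 2.66, 2.95 and 4.40 CPM with Saline (log2 fold change -0.05 with a standard error of 0.32, edgeR adjusted p = 0.989). Avpr1a, the vasopressin receptor that oxytocin can also bind, was at 1.69, 1.47 and 5.01 CPM with CNO, against 3.61, 1.47 and 2.82 CPM with Saline (0.06, standard error 0.44). With standard errors this wide, moderate differences in these receptors were not detectable at this depth. Cd38, the enzyme that oxytocin release depends on in the mouse, was at 50.1, 43.7 and 44.6 CPM with CNO, against 54.2, 61.3 and 53.3 CPM with Saline (edgeR adjusted p = 0.471). Oxt itself had at most 1 count in any library.

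Astrocyte markers gave no call among 19 tested, and their median was 0.11. At an unadjusted p under 0.05, 6 were higher and none lower, against 3.46% and 3.59% over all genes. Gfap, the astrocytic intermediate filament, was at 1054, 1534 and 1461 CPM with CNO, against 1043, 1128 and 1204 CPM with Saline (edgeR adjusted p = 0.575). Perineuronal net genes gave no call among 13, and Bcan, brevican, was at 237, 277 and 268 CPM with CNO, against 190, 234 and 220 CPM with Saline (edgeR adjusted p = 0.34). Of 41 nuclear genes of oxidative phosphorylation 36 had a value below 0, but their median was only -0.11 and none passed. At an unadjusted p under 0.05, 6 of them were lower, against 3.59% over all genes. Ndufc2, a complex I subunit, was at 31.8, 29.1 and 29.3 CPM with CNO, against 32.1, 46.0 and 37.7 CPM with Saline (edgeR adjusted p = 0.479). The glucocorticoid-responsive genes (20 tested, 0 higher and 1 lower at that p), clock genes (22, 2 and 0), heat shock genes (31, 0 and 1), cholesterol genes (25, 1 and 1) and endothelial markers (18, 0 and 1) gave no call, and their medians lay between -0.02 and 0.04. The shares over all genes at that p were 3.46% higher and 3.59% lower. Dusp1, a phosphatase that glucocorticoids induce, was at 9.07, 7.69 and 10.02 CPM with CNO, against 12.7, 11.4 and 11.3 CPM with Saline (edgeR adjusted p = 0.681). Pericyte and smooth muscle markers had 1 higher gene of 14 at that p, Myh11, the smooth muscle myosin, at 44.3, 40.4 and 38.4 CPM with CNO, against 32.9, 33.9 and 23.4 CPM with Saline (edgeR adjusted p = 0.317).

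Genes outside these lists that were next in p did not pass either. Lypd1, a small protein that binds nicotinic receptors, was at 41.2, 48.3 and 48.3 CPM with CNO, against 32.5, 34.2 and 31.5 CPM with Saline (edgeR adjusted p = 0.0746). Slit2, the secreted ligand of Robo receptors, was at 78.3, 58.9 and 69.2 CPM with CNO, against 93.9, 95.0 and 90.8 CPM with Saline (edgeR adjusted p = 0.0746). Frzb, a secreted Wnt inhibitor, was at 27.8, 40.3 and 32.2 CPM with CNO, against 23.0, 20.3 and 22.9 CPM with Saline (edgeR adjusted p = 0.126). Rasd2, a small GTPase, and Prss12, the synaptic protease neurotrypsin, had log2 differences of 0.44 and 0.41. St3gal2, Pitpnm3 and Ak5 lay between 0.30 and 0.35. On the lower side Plekha4, Gas2l3 and Steap4 had log2 differences of -1.60, -1.69 and -1.95 at low levels, and Pcdh18, a protocadherin, was at -0.53. At the thresholds that the study used, an unadjusted p under 0.05 with a change over 2-fold, 59 genes remained (0.442%), 5 higher (0.0375%) and 54 lower (0.405%), and without Saline replicate 3 there were 29 higher and 41 lower.

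In laminae III–VI, where 11 genes rose (0.0839%) and 7 fell (0.0534%), 16 of the 19 genes could be tested, and 13 of them had the same sign there. Only Hoxd10 and C3 passed in both layers. Hoxd10 was at 65.7, 19.5 and 25.1 CPM with CNO, against 84.6, 81.2 and 88.5 CPM with Saline in laminae III–VI (log2 fold change -1.21 with a standard error of 0.23, edgeR adjusted p = 0.0396). C3 was at 21.1, 16.0 and 15.6 CPM with CNO, against 39.1, 75.2 and 30.6 CPM with Saline there (-1.43, standard error 0.23, adjusted p = 0.0109). Tenm3 had nearly the same log2 fold change in both layers, 0.40 in the superficial and 0.36 in the deep layer. Gpr83 and Pmp22 were at -0.01 in the deep layer, against -0.75 and -1.73 in laminae I–II, and Tmem132d at -0.09, against 0.78. The Schwann cell list had a median of -0.11 and the fibroblast and meninges list of 0.05 in laminae III–VI, with no call in either. The sums of the deep dorsal horn list and the neurons at large list, which share members, lay higher with CNO there. Their medians were 0.24 and 0.08. Other neuron lists did not all have a median above 0. The excitatory identity, inhibitory identity and superficial dorsal horn lists had medians of -0.09, -0.01 and -0.12 in laminae III–VI. Motor and cholinergic neurons had a median of 0.09. The deep dorsal horn markers summed to 15073 to 17851 CPM with CNO and 11043 to 13329 CPM with Saline in laminae III–VI, with a median of 0.24 and 2 of 14 members higher (Nefh and Nefm, chains of the neurofilament). The markers of neurons at large summed to 26036 to 29581 CPM with CNO and 21042 to 23366 CPM with Saline, with 3 of 18 higher, these same genes and Nefl, the light chain. The groups did not overlap for either sum, and its part in the differences between the layers was not tested.

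Whether the CNO effect differed between the layers was tested as an interaction over 12 libraries and 13745 genes, and 2 genes passed (0.0146%), both with a lower value in laminae I–II. The Fgf1 effect was 1.49 lower on the log2 scale in laminae I–II than in laminae III–VI, where Fgf1 was at 52.9, 67.0 and 74.1 CPM with CNO, against 52.5, 52.6 and 55.5 CPM with Saline (interaction -1.49, edgeR adjusted p = 0.00954). Fstl1, a secreted glycoprotein of mesenchymal cells, was at 50.1, 46.2 and 44.0 CPM with CNO, against 58.5, 57.1 and 73.2 CPM with Saline in laminae I–II. In laminae III–VI it was at 103, 106 and 118 CPM with CNO, against 83.0, 79.7 and 89.4 CPM with Saline, a rise there (0.37, edgeR adjusted p = 0.0455), and its interaction was -0.80 (adjusted p = 0.0198). Fgf1 passed this test in 10 and Fstl1 in 7 of the 12 fits that left out 1 library, and neither passed without CNO replicate 2 of laminae I–II or CNO replicate 3 of laminae III–VI. Libraries with the same treatment and number deviated together across the layers, and with a term for each treatment and number as a block the interaction passed for 59 genes (0.429%). With that block 7 of the 19 genes passed: Fgf1 (adjusted p = 0.000247), Pmp22 (0.000134), Hoxd10 (0.000454), Aldh1a2 (0.00192), Dcn (0.0312), Prx (0.0315) and Pmp2 (0.0318), each with the lower value in laminae I–II. Gpr83 (adjusted p = 0.152), Tmem132d (0.0515), Sox5 (0.624) and Tenm3 (0.903) did not pass with the block, and C3 did not either (0.33). Sst, which had opposite signs in the layers (0.38 in the superficial and -0.40 in the deep layer), passed with the block (0.000134) and not without it (adjusted p = 0.54). The median of the superficial dorsal horn markers also changed sign, at 0.14 in the superficial and -0.12 in the deep layer, where 1 of 14, the neurotensin gene Nts, fell.

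**Figure D5:**
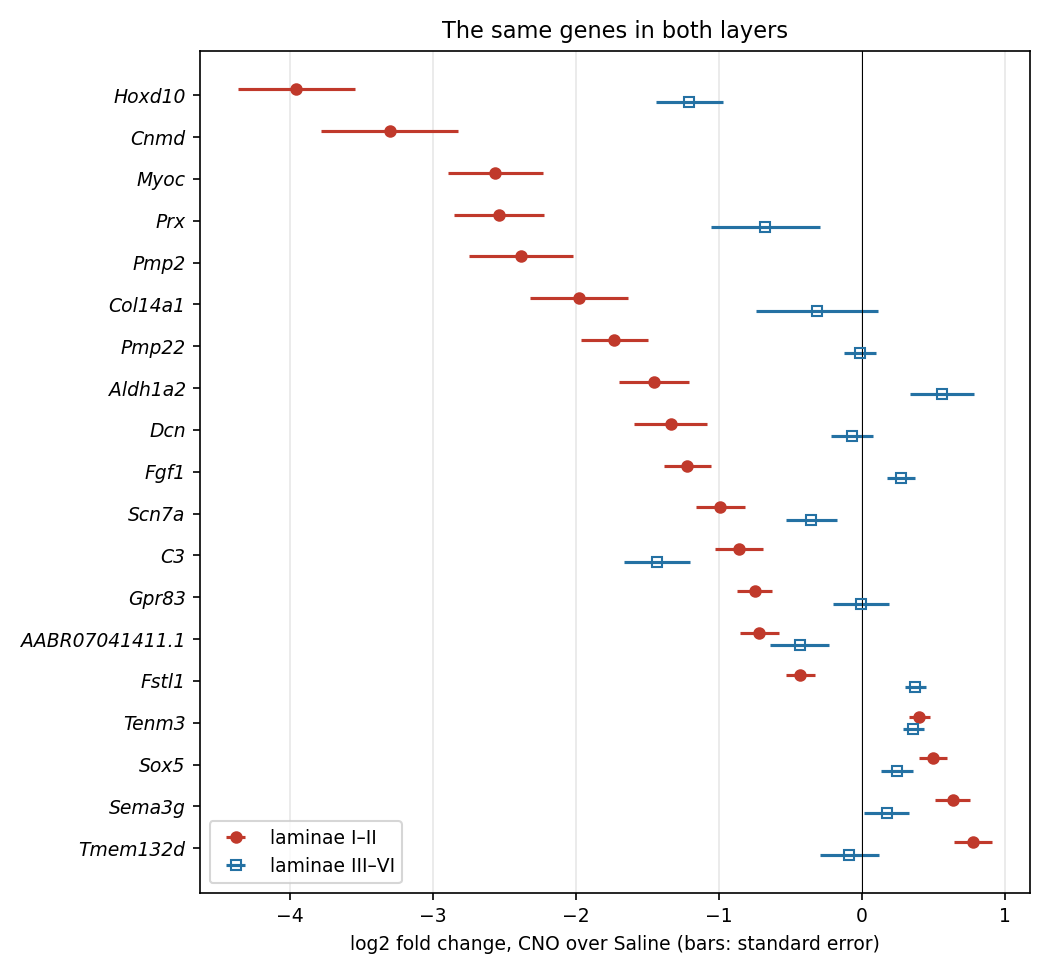
Log2 fold change of CNO over Saline with its standard error (x axis) for 18 of the 19 genes and Fstl1, with filled red circles for laminae I–II and open blue squares for laminae III–VI (drawn for the 15 of these 18 genes tested there and for Fstl1). Fgf1 and Fstl1 lie below 0 in laminae I–II and above 0 in laminae III–VI, at -1.22 against 0.27 and -0.43 against 0.37.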

How the data were processed

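Laser-dissected superficial and deep dorsal horn of transgenic rats was sequenced as total RNA on a NextSeq500 after rRNA depletion with a strand-specific kit. The authors mapped the reads in CLC Genomics Workbench against the rn6 genome and deposited, for each layer, the raw count of reads per gene, which were used here as deposited. Another 24 per-sample columns (transformed and quantile-normalized values) and the authors' own fold changes and p-values between groups were not used. Groups follow the sample titles. Each group holds samples of 3 rats, and the labels do not say whether same-numbered samples of the 2 layers came from 1 rat.

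Genes were kept by filterByExpr (minimum count 10, minimum total 15), scaled by TMM and tested with edgeR 4.0.16 (quasi-likelihood test, two-sided, R 4.3.3) on the 6 libraries of laminae I–II, with Benjamini-Hochberg adjustment over all 13344 genes. The standard error is the log2 fold change over the square root of the F statistic. The edgeR fit was tested on simulated data. The layer difference was fitted over all 12 libraries. In the deviations from the group means of 12881 genes, same-numbered libraries of a treatment in the 2 layers correlated at 0.152 to 0.231 and all others below 0, so that test is also given with a block. Deviations within a group of 3 sum to 0, which pulls the other correlations below 0, so their sign adds nothing on pairing. Alternatives used DESeq2 1.42.0, the edgeR exact test, limma-voom (limma 3.58.1), other scalings and filters, and the omission of each library. With 3 against 3 libraries an exact permutation test of a single value cannot go below 0.1, so none was used. Counts and CPM are not divided by gene length, so levels were compared between libraries and not between genes.

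The genes named are the 19 past adjusted p 0.05 (1 of them is counted but not reported here), the 10 higher and 10 lower non-overlapping genes with a symbol next in p, no more than 4 members per list, by smallest p, from 40 lists, the tested Hox genes, and Oxt, Oxtr, Avpr1a, Fos, Pax2, Gad1, Gad2 and Slc32a1. Further list members (among them Ngfr, Egr2, Cx3cr1, Mbp, C2, Hoxd11, Cyp26b1, Igfbp5, Ebf1, Bhlhe22, Kcnd3, Egr3, Nts and the neurofilament genes) were named after their values were seen. The members and lists were chosen with earlier results of these data known. Lists are described by counts and medians and were not tested. The lists held 928 genes, 709 of them tested. Counts of overlapping or near-identical genes can be split by the counting. Promoters came from RefSeq (GRCr8), while positions of genes are those of rn6 in the deposited annotation.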

Additional observations from a re-analysis of the deposited data

Results flagged for a closer look

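Without a block, the CNO effect differed between the layers by a test of the difference itself for 2 genes. With a term for each treatment and number as a block the test called 59 genes, Fgf1 and Fstl1 among them. The values here are from the fit without that block. For Fgf1 the effect was -1.49 in laminae I–II relative to laminae III–VI on the log2 scale (edgeR interaction, adjusted p = 0.00954), with CNO below Saline in all 3 libraries of laminae I–II and a mean of 64.7 ± 10.8 CPM with CNO against 53.5 ± 1.70 CPM with Saline (SD, n = 3 each) in laminae III–VI. Over the 12 fits that left out 1 library this value ran between -1.78 and -1.33 and the adjusted p between 0.000247 and 0.0876. For Fstl1 the difference was -0.80 (adjusted p = 0.0198), with non-overlapping groups in both layers and opposite directions. Its value ran between -0.87 and -0.67 and its adjusted p between 0.00906 and 0.12 over the same 12 fits.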

How the results depend on the processing

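Every one of the 19 genes kept its direction in all 15 alternatives of the comparison in laminae I–II, and their number is what moved. DESeq2 called 9 genes, all shared with the main result, the edgeR exact test 41 (19 shared), and edgeR without a filter on low counts 131 (44 higher, 87 lower, 19 shared) among 22152 genes, while limma-voom, RLE factors, library totals and a filter of 1 CPM gave 14 to 19. Leaving out 1 library gave 3 to 28 genes, with 3 only without CNO replicate 2, where 669 genes had an unadjusted p under 0.05 against 941 with all libraries. At an unadjusted p under 0.05 and a change over 2-fold there were 251 genes without a filter (72 higher, 179 lower), 95 with a filter of 1 CPM (15 higher, 80 lower), and 58 to 88 when 1 library was left out. The number of genes that differed between the layers was 59 with the replicate block and 0 to 5 when 1 library was left out; the 0 came without CNO replicate 2 of laminae I–II (630 genes at an unadjusted p under 0.05 in edgeR) and without CNO replicate 3 of laminae III–VI (573). Within laminae I–II a replicate number as block called 78 genes (23 higher, 55 lower), but CNO and Saline rats share only a number: same-numbered libraries correlated at 0.0261 to 0.031, each best with its own number, and the labels give no pairing, so that fit was not used. Of the list medians 539 values moved by less than the replicate spread and 16 by more. The causes of these shifts were not tested. Genes near the filter, such as Cnmd, Pmp2 and Myoc, rest on few counts with CNO. The standard errors of Oxtr and Avpr1a were wide, and moderate differences in them were not detectable at this depth. The p-values measure the spread between 3 samples per group, and all rats carried the transgene.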
